A study of Mus musculus with 4 samples.

Results

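Complement and acute phase genes were followed in sorted hair follicle stem cells of the mouse, with and without regulatory T cells. The 7 genes were taken by symbol from the 24084 gene rows of the count table: the complement components C1ra, C4b, C3 and Cfb, the membrane regulators Cd55 and Cd59a, and the acute phase gene Saa3. The RNA came from skin epidermis of C57BL/6 mice aged 7 to 10 weeks, 4 days after depilation, which sets off renewed hair growth. One group was WT, in which regulatory T cells are present, and the other was Foxp3-DTR, in which cells that express Foxp3 carry a diphtheria toxin receptor and are depleted by the toxin. Both groups received diphtheria toxin (15 ng/g, intraperitoneally), so toxin exposure was shared. Each group had 2 libraries, WT A and C and Foxp3-DTR C and D, and the question was how the stem cells differ when regulatory T cells are missing.

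Complement is a chain of plasma proteins that marks cells and particles for clearance. In the classical branch the proteases C1r and C1s are bound to C1q, C1r activates C1s, and C1s cleaves C4 and C2. The resulting enzyme cleaves C3, while factor B forms the C3-cleaving enzyme of the alternative branch. Cells shield themselves with membrane proteins such as CD55, which dissociates these enzymes, and CD59, which blocks the membrane attack complex. Acute phase proteins, among them serum amyloid A, are made mainly by the liver during inflammation, and epithelia can make some of them and some complement proteins in response to cytokines.

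Gene counts per library ran from 13911765 to 15923154, and levels are given in CPM, read counts divided by the scaled library size. Values within a group follow its replicate letters, A then C and C then D. The follicle stem cell markers Krt15 and Cd34 were abundant in every library, at no less than 7255 and 936 CPM. Of 10 stem cell markers none passed in edgeR's test, and DESeq2 called Lhx2 lower (adjusted p = 3.03e-05) and Itga6 and Cd34 higher (0.00934 and 0.0284) in Foxp3-DTR. The summed level of 6 suprabasal keratinocyte markers parted the replicates of each group, with 8016 CPM in WT A and 6800 in Foxp3-DTR D against 932 in WT C and 1173 in Foxp3-DTR C. The Y-linked genes Ddx3y, Eif2s3y, Uty and Kdm5d had no counts in WT and 39.0 CPM or more in Foxp3-DTR, and the titles carry DEP2 in WT and DEP3 in Foxp3-DTR. Sex of the animals and whatever that code marks cannot be told apart from the group. The labels do not say whether the libraries came from separate animals or from pools, nor which surface markers were sorted.

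The upstream sequence is shown for C3, the member with the largest difference between groups, for Saa3, the acute phase member, and for Cd59a, a member whose groups overlapped. Sequences are from RefSeq (GRCm38.p6), 5′ to 3′ on the gene's strand and end at or before the transcript start. Capitals mark matches to the letters TTGCNNAA, bound by C/EBP factors, or GAAANNGAA, the core of the interferon response element, on either strand.

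C3, chr17:57228137-57228386, minus strand: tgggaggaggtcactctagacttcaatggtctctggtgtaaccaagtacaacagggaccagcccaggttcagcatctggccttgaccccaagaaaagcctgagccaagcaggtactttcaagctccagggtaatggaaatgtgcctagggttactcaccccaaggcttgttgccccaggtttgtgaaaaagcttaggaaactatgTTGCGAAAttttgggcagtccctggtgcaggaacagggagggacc
Saa3, chr7:46715701-46715926, minus strand: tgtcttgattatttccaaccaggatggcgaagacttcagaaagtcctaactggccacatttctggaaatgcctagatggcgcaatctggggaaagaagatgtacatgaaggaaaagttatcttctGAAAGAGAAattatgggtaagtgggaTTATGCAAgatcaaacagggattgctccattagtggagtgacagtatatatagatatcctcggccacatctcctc
Cd59a, chr2:104095551-104095800, plus strand: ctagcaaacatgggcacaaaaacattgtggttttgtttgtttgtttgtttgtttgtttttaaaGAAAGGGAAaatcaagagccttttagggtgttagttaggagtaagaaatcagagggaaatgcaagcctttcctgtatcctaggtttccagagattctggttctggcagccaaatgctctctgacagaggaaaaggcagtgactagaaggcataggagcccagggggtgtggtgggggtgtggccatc

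In the 250 bases upstream, C3 held 1 C/EBP match, 45 to 38 bases before the RefSeq start. Saa3 held 1 C/EBP match, at 99 to 92 bases on the opposite strand, and 1 interferon response match, at 125 to 117 bases. Cd59a held 1 interferon response match, at 187 to 179 bases. The windows of C1ra and Cd55 held no match to these letters, to the STAT palindrome TTCNNNGAA or to the NF-kappaB consensus, and C4b and Cfb were not searched. The C1ra window covers 124512371 to 124512620, while the gene as placed below starts at 124512405. Most of that window thus lies inside the gene, and the bases upstream of that start were largely not searched. Of 32851 upstream windows of the same length, 9.56% held a C/EBP match, 7.13% an interferon response match, 7.02% a STAT match and 7.25% an NF-kappaB match. A match is a description of letters only.

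Of the 7 members, 5 passed the filter on low counts and were tested, and the counts of Cfb and Saa3 were too low. C3 passed it through the Foxp3-DTR libraries alone, so that a difference in C3 was partly built into its being tested. By the quasi-likelihood test of edgeR, adjusted over 12920 genes by Benjamini-Hochberg, 0 of the 5 members passed the threshold of 0.05 in either direction, beside 0.82% of all tested genes called higher and 0.426% called lower in Foxp3-DTR. At an unadjusted edgeR p under 0.05, 3 members were higher (C3, C1ra and C4b), beside 6.76% of all genes. DESeq2 called the same 3 members higher after adjustment, beside 3.61% of the genes it tested, and limma-voom called 0, beside 0.542% of genes. These 3 members were also those whose Foxp3-DTR libraries both lay above both WT libraries, a pattern seen in 22.0% of tested genes. In bulk RNA, fewer cells of a type and less RNA per cell cannot be told apart.

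**Figure D1:**
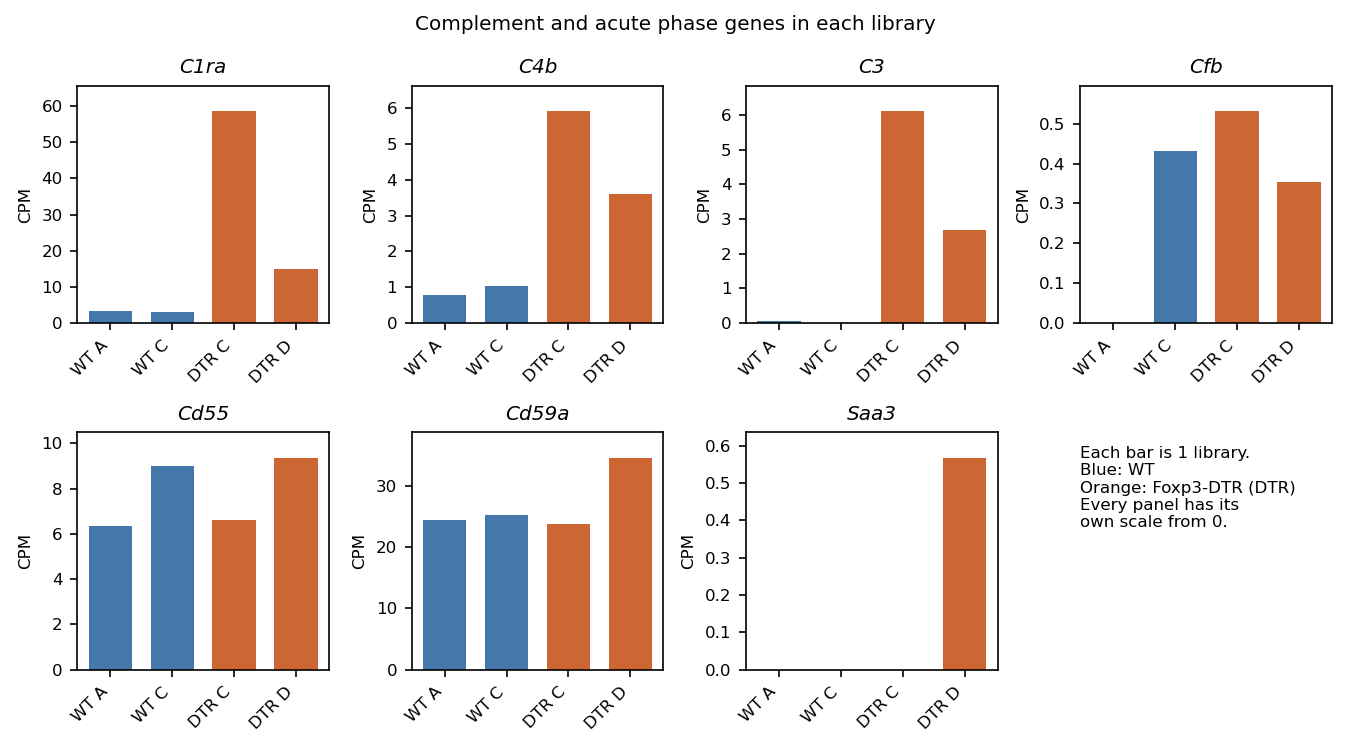
Level of each of the 7 genes in CPM (y axis, a separate linear scale from 0 in each panel) in the 4 libraries (x axis, 1 bar each; blue WT, orange Foxp3-DTR). C1ra, C4b and C3 were higher in both Foxp3-DTR libraries than in both WT libraries, Cd55 and Cd59a overlapped between groups, and Cfb and Saa3 stayed under 0.6 CPM throughout.

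C1ra encodes C1r, the protease that activates C1s at the head of the classical pathway (mm10 chromosome 6, 124512405 to 124523443, plus strand). It stood at 3.45 and 3.01 CPM in the WT pair and at 58.5 and 15.1 CPM in the Foxp3-DTR pair. The WT libraries were close to each other, and the Foxp3-DTR libraries were both higher but 3.88 times apart. The group means were 3.23 ± 0.308 and 36.8 ± 30.7 CPM (SD, n = 2 libraries each), a log2 fold change of 3.51 ± 0.70 (SE) with an edgeR adjusted p of 0.0854. Without Foxp3-DTR D the edgeR adjusted p was 0.00105, and without Foxp3-DTR C the log2 fold change was 2.22 with an edgeR adjusted p of 0.217. DESeq2 gave an adjusted p of 6.46e-07, and the adjusted p over 8 alternatives ran from there to 0.393. Of the 50-base words in C1ra transcripts 50.8% also occur in another gene, chiefly its near-identical copy C1rb, so the split between them is uncertain. C1rb itself had 4 counts in WT C and 0 in the other 3 libraries.

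C4b encodes complement C4, which is cleaved by C1s and then binds to target surfaces (chromosome 17, 34728380 to 34743882, minus strand). It stood at 0.774 and 1.05 CPM in the WT pair and at 5.90 and 3.61 CPM in the Foxp3-DTR pair. The groups did not overlap, and their log2 fold change, 2.37 ± 0.69 (SE), had an edgeR adjusted p of 0.163. DESeq2 placed C4b just inside the threshold, with an adjusted p of 0.0483. Without Foxp3-DTR C the log2 fold change was 1.98 and the edgeR adjusted p 0.857, the highest of the 8 alternatives. C4b shares 34.6% of its 50-base words with C4a, the neighbouring copy whose product is known in mice as sex-limited protein. C4a had 0 and 23 counts in WT and 29 and 7 counts in Foxp3-DTR, with overlapping groups and a log2 fold change of 0.75 ± 1.58 (SE), so the assignment of reads between the copies is uncertain.

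C3 encodes the protein at which all branches of complement meet (chromosome 17, 57203970 to 57228136, minus strand), and its transcripts share no 50-base word with another gene. It had 1 and 0 counts in WT (0.0704 and 0 CPM) and 92 and 38 counts in Foxp3-DTR (6.10 and 2.69 CPM). C3 was thus close to undetected in both WT libraries and present at a low level in both Foxp3-DTR libraries. The ratio of Foxp3-DTR over WT was 136, with an exact 95% counting interval of 23.9 to 5399 that covers counting error only. The fitted log2 fold change of C3, 6.73 ± 1.24 (SE), gave an edgeR adjusted p of 0.0596. It moved to 9.06 without WT A, the library with the 1 count, and to 5.80 without WT C. C3 passed with DESeq2 (adjusted p = 0.00124), in edgeR without the filter on low counts (adjusted p = 0.0163) and in edgeR without Foxp3-DTR D (adjusted p = 0.0296), and its edgeR adjusted p was 0.222 without Foxp3-DTR C, the highest of the 8 alternatives.

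Cfb encodes factor B of the alternative pathway (chromosome 17, 34856374 to 34862518, minus strand). It had 0 and 7 counts in WT and 8 and 5 counts in Foxp3-DTR, at most 0.531 CPM. The groups overlapped, and the ratio of Foxp3-DTR over WT was 1.94 (exact 95% counting interval 0.719 to 5.74), so a difference was not detectable at these counts. Of Cfb's 50-base words 73.0% also occur in Gm20547, a gene model whose exons overlap it on the same strand. The assignment of reads between them is uncertain, and its part in the low counts of Cfb was not tested. The neighbour C2, whose product pairs with C4 in the classical pathway, stood at 3.17 and 2.15 CPM in WT and 6.70 and 4.18 CPM in Foxp3-DTR (log2 fold change 1.03 ± 0.58, SE, edgeR adjusted p = 0.505). Exons of C2 also overlap those of other genes, Gm20547 among them, over 1817 bases in all.

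Cd55 encodes decay-accelerating factor (chromosome 1, 130439027 to 130462744, minus strand). It stood at 6.34 and 8.98 CPM in the WT pair and at 6.63 and 9.35 CPM in the Foxp3-DTR pair. Each group had 1 lower and 1 higher library, and the replicates of a group differed more than the groups did. The log2 fold change was 0.06 ± 0.43 (SE), with a 95% interval of -0.97 to 1.09 and an edgeR adjusted p of 0.971. Its copy Cd55b, listed as Daf2, had 0 counts in all 4 libraries.

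Cd59a encodes the widely expressed form of CD59 (chromosome 2, 104095801 to 104115354, plus strand). It stood at 24.5 and 25.3 CPM in the WT pair and at 23.7 and 34.6 CPM in the Foxp3-DTR pair. Only Foxp3-DTR D stood apart, and Foxp3-DTR C was the lowest of the 4. The log2 fold change was 0.23 ± 0.27 (SE), with a 95% interval of -0.42 to 0.88 and an edgeR adjusted p of 0.788. Its copy Cd59b, which holds 3.87% of the 50-base words of Cd59a, stood at 1.06, 1.17, 1.26 and 0.283 CPM, with a log2 fold change of -0.52 ± 1.03 (SE).

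Saa3 encodes the serum amyloid A form that mouse tissues make outside the liver (chromosome 7, 46711998 to 46715700, minus strand). Foxp3-DTR D had 8 counts, or 0.567 CPM, and the other 3 libraries had none. With 0 counts, levels up to 0.211 CPM in WT A, 0.185 in WT C and 0.199 in Foxp3-DTR C remain possible. No fold is given, since the counts came from 1 library. Of its 50-base words 3.57% occur in other genes. Its relatives Saa1, Saa2 and Saa4 had 0 counts in all 4 libraries.

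Levels of different genes were compared per kilobase of exon. Those of C1ra, C4b and Cfb may be lowered by the sequence they share with other genes. In WT, Cd59a was the highest member at 13.5 and 14.0 CPM per kilobase, followed by Cd55 at 1.31 and 1.85 and C1ra at 1.16 and 1.01. C4b stood at 0.136 and 0.184, Cfb at 0 and 0.152, C3 at 0.0137 and 0, and Saa3 at 0. The replicates of C4b and Cfb overlapped, as did those of C3 and Saa3 at 0, so these neighbours were not told apart. In Foxp3-DTR, C1ra reached 19.6 and 5.06 CPM per kilobase, which overlapped Cd59a at 13.1 and 19.1. C3 at 1.19 and 0.524 and C4b at 1.04 and 0.635 overlapped each other and lay below Cd55 at 1.37 and 1.93. Cfb stood at 0.188 and 0.125 and Saa3 at 0 and 0.217, overlapping each other.

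The rest of the complement pathway was read from 59 genes in 6 roles, members included. Counts were 0 in all libraries for 28 of them, 20 were tested, and 1 was called higher and 0 lower in edgeR's test. At an unadjusted edgeR p under 0.05, 7 were higher and 0 lower, DESeq2 called 6 of 23 higher and 0 lower, and limma-voom called 2 higher. Over all genes the shares called higher were 0.82% in edgeR's test, 6.76% unadjusted, 3.61% with DESeq2 and 0.542% with limma-voom. The median log2 fold change of the 20 was 0.82, beside -0.01 over all tested genes, and 2 of the 20 had passed the filter through Foxp3-DTR alone.

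The gene that passed was Serping1, which encodes the C1 inhibitor, the serpin that inactivates C1r and C1s (chromosome 2, 84765387 to 84775444). It stood at 9.57 and 12.7 CPM in the WT pair and at 112 and 82.7 CPM in the Foxp3-DTR pair. Both groups were tight and far apart, and Serping1 rose by 3.13 ± 0.27 (SE) on the log2 scale (edgeR adjusted p = 0.00672). It passed in all 8 alternatives, with log2 fold changes of 2.89 to 3.35. Clu, which encodes clusterin, a chaperone that binds the terminal complement complex, stood at 33.2, 12.3, 202 and 291 CPM. Its groups did not overlap either, with a log2 fold change of 3.44 ± 0.53 (SE) and an edgeR adjusted p of 0.0604, and it passed with DESeq2, with limma-voom and without either WT library, with adjusted p from 1.10e-13 to 0.207 over the 8 alternatives. The fluid phase regulators Cfi, C4bp, Vtn, Cpn1 and Cpn2 had 0 counts in all libraries.

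At the head of the classical pathway, C1s1, which encodes the protease C1s, stood at 21.0 and 37.5 CPM in the WT pair and at 194 and 82.1 CPM in the Foxp3-DTR pair. The groups did not overlap, and the edgeR adjusted p was 0.124 for a log2 fold change of 2.24 ± 0.51 (SE). Over the alternatives the adjusted p of C1s1 ran from 1.11e-05 with DESeq2 to 0.414, and 2 of the 8 passed. C1s1 shares 21.8% of its 50-base words with C1s2, which stood at 0.634 to 3.90 CPM with overlapping groups. C1rl, a C1r-like protease, had a log2 fold change of 0.88 ± 0.54 (SE) and an edgeR adjusted p of 0.543. The C1q chains C1qa, C1qb and C1qc, which macrophages make, had at most 1 count in any library. Colec11, a collectin of the lectin pathway, had at most 20 counts in a library and overlapping groups.

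**Figure D2:**
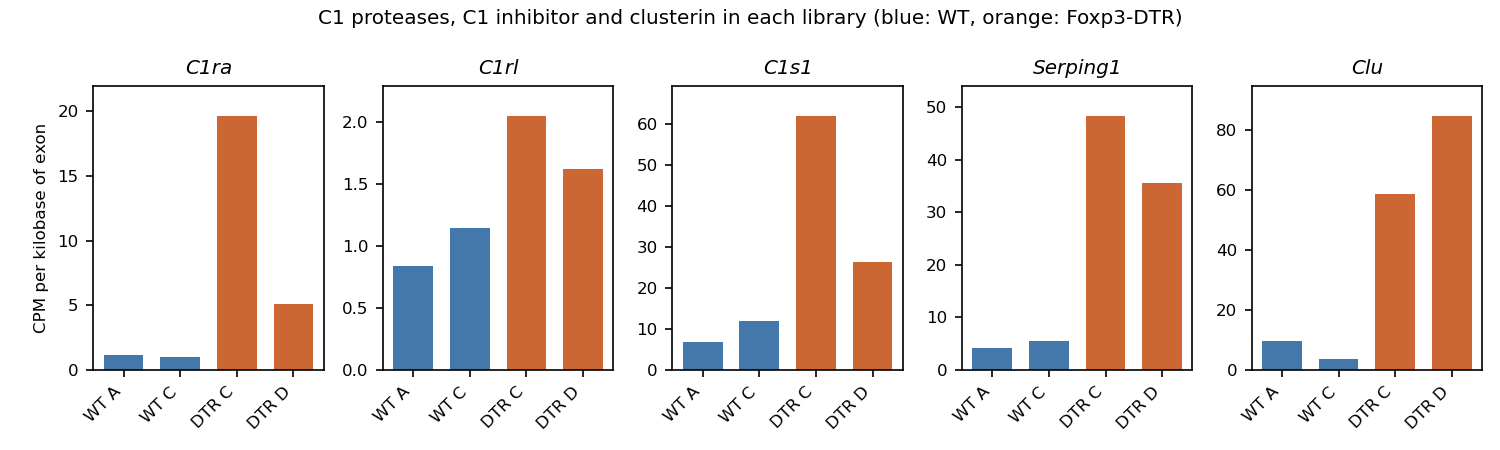
Levels per exon length (y axis, CPM per kilobase, a separate scale from 0 in each panel) of the C1 proteases C1ra, C1rl and C1s1, the C1 inhibitor Serping1 and Clu in the 4 libraries (x axis, 1 bar each; blue WT, orange Foxp3-DTR). C1ra and C1s1 were higher in Foxp3-DTR C than in Foxp3-DTR D, at 19.6 against 5.06 and 61.9 against 26.2, while Serping1 stood at 48.3 and 35.6.

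The 2 Foxp3-DTR libraries differed in how high these genes were. The ratio of replicate C over replicate D was 3.88 for C1ra, 2.36 for C1s1, 2.27 for C3, 1.63 for C4b and 1.36 for Serping1, and it was 0.694 for Clu, 0.709 for Cd55 and 0.687 for Cd59a. Irf1, a transcription factor of the interferon response, was also higher in replicate C, at 341 against 116 CPM. Suprabasal keratinocyte markers went the opposite way, as given above. The part of either difference in these genes was not tested.

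No gene of the other roles passed the threshold in edgeR's test. The other convertase gene tested was Cfp, which encodes properdin, the stabilizer of the alternative pathway enzyme, at 3.03, 5.17, 1.19 and 3.90 CPM with overlapping groups. In the terminal pathway, C9 stood at 7.60 to 17.8 CPM with overlapping groups and a log2 fold change of -0.20 ± 0.47 (SE), C8g had 0 to 22 counts, and the other 5 genes had 0 counts. Among membrane regulators, Cr1l, the rodent regulator known as Crry, was the most abundant in CPM, at 39.8 and 49.0 CPM in WT and 66.1 and 68.1 CPM in Foxp3-DTR. Its groups did not overlap, with a log2 fold change of 0.60 ± 0.20 (SE) and an edgeR adjusted p of 0.225. Cd46 stood at 0.704 to 3.51 CPM with overlapping groups, and Susd4 at 2.25 CPM in WT A and 0.567 to 0.615 CPM elsewhere. Of 9 receptor genes 7 had 0 counts in all libraries, among them C3ar1 and C5ar1, and Itgam, a subunit of a leukocyte complement receptor, had at most 3 counts. Its partner Itgb2 had 1 and 3 counts in WT and 11 and 12 in Foxp3-DTR, with an edgeR adjusted p of 0.429.

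**Figure D3:**
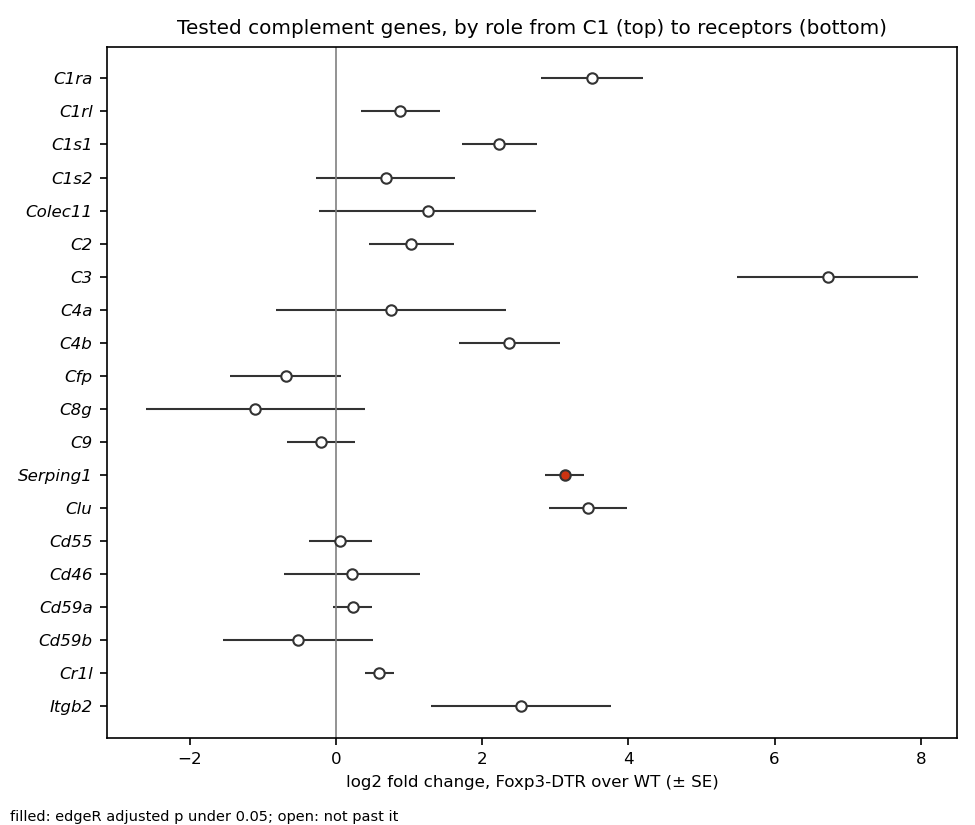
Log2 fold change of Foxp3-DTR over WT with its standard error (x axis) for the 20 tested complement genes (y axis, in order of role from the C1 proteases to the receptors). Serping1 is the filled point past an edgeR adjusted p of 0.05, C3 and Clu lie at 6.73 and 3.44 without passing, and Cd55 and Cd59a lie near 0.

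The acute phase list held 35 genes, of which 20 had 0 counts in all libraries, among them the fibrinogen chains Fga, Fgb and Fgg and albumin, Alb. In edgeR's test 1 of 7 tested genes was called higher and 0 lower, DESeq2 called 3 of 7 higher, and the median log2 fold change was 1.88. Over all genes these were 0.82% and 0.426%, 3.61%, and a median of -0.01. Of the 7, 2 had passed the filter through Foxp3-DTR alone, and Lcn2, the gene called, was one of them, so its difference was partly built into its being tested. Lcn2, which encodes the siderophore-binding protein lipocalin 2, had 0 and 5 counts in WT and 391 and 308 counts in Foxp3-DTR, a ratio of 146 (exact 95% counting interval 62.2 to 451), and rose with an edgeR adjusted p of 0.0231. It did not pass with limma-voom or without Foxp3-DTR C, with adjusted p of 0.0626 and 0.0704, and passed in the other 6 alternatives. Its log2 fold change was 7.14 ± 0.83 (SE) and ran from 6.25 without WT A to 11.43 without WT C. Serpina3n, a serine protease inhibitor of a family of close copies, stood at 1.48 and 16.2 CPM in the WT pair and at 2470 and 2876 CPM in the Foxp3-DTR pair. The WT libraries were far apart, and its edgeR adjusted p was 0.127 (DESeq2 adjusted p = 9.93e-10). Cp, which encodes the copper protein ceruloplasmin, stood at 1.06, 0.431, 20.6 and 2.76 CPM. The edgeR adjusted p of Cp was 0.167 (DESeq2 adjusted p = 0.00112). Orm1, which encodes an acid glycoprotein, stood at 17.5 CPM (WT A) and 16.2 CPM (Foxp3-DTR D) against 1.05 and 1.53 CPM in the other libraries, the same order of libraries as the suprabasal markers, and Cd14, a receptor for bacterial lipopolysaccharide, had a log2 fold change of 0.71 ± 0.66 (SE).

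Receptors and factors of the routes known to induce complement and acute phase genes were taken as a list of 30 genes, all tested. The list, called inducer genes below, also holds inhibitors of these routes, among them Socs1, Socs3 and Nfkbia. In edgeR's test 8 of the 30 rose and 0 fell, against the 0.82% and 0.426% given above for all genes. Socs3 and Nfkbia were among the 8. The groups did not overlap and were higher in Foxp3-DTR for 24 of the 30, beside the 22.0% given for all genes, and the median log2 fold change was 1.26. The list was chosen with results of these data known, so its direction is not independent evidence. Cebpd, which encodes the factor C/EBP delta of acute phase promoters, stood at 9.64 and 13.2 CPM in the WT pair and at 175 and 144 CPM in the Foxp3-DTR pair, and rose by 3.80 ± 0.25 (SE, edgeR adjusted p = 0.0033). Its relative Cebpb had 0.52 ± 0.29 (edgeR adjusted p = 0.496).

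Along the IL-6 family route, Osmr, the oncostatin M receptor, rose by 2.11 ± 0.30 from 54.3 and 92.3 CPM to 360 and 272 CPM. Stat3, the transcription factor that carries this signal, rose by 1.48 ± 0.21, and its feedback inhibitor Socs3 by 2.69 ± 0.19 (SE). The interferon genes Ifngr2, a subunit of the interferon gamma receptor, and Irf9 rose by 1.64 and 2.26, and the NF-kappaB genes Relb and Nfkbia by 1.95 and 1.83. Their edgeR adjusted p ran from 0.0033 for Socs3 to 0.0427 for Osmr and Ifngr2. Cebpd, Socs3, Nfkbia and Irf9 passed in all 8 alternatives, Osmr in 7, Stat3 in 6, and Relb and Ifngr2 in 4. With DESeq2, 17 of the 30 were called higher, beside 3.61% of all genes that DESeq2 tested. The abundant genes Tnfrsf1a, Nfkb1 and Jak1 did not pass in edgeR's test, with log2 fold changes of 0.61, 0.64 and 0.08, and Tnfrsf1a and Nfkb1 passed with DESeq2 (adjusted p = 0.0280 and 0.0487).

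Markers of other cell types were read beside these differences, and most of the immune and fibroblast markers had too few counts to be tested. The summed level of 11 macrophage and myeloid markers, 3 of them tested, was 26.6 and 3.57 CPM in WT and 25.0 and 7.44 CPM in Foxp3-DTR, and Mrc1 had 0 counts. Cd74 gave most of this sum in WT A and Foxp3-DTR C, at 17.8 and 21.8 CPM. Of the others, Cd68 was higher in both Foxp3-DTR libraries (1.20 and 1.05 against 1.92 and 3.61 CPM), and Fcer1g and Ptprc were lower, at no more than 0.133 CPM in Foxp3-DTR. For 5 neutrophil markers, 1 of them tested, the sum was 0.141 and 0 CPM in WT and 2.52 and 4.25 CPM in Foxp3-DTR, and Csf3r had 0 counts. In Foxp3-DTR, S100a9 stood at 0.199 and 2.55 CPM, S100a8 at 1.06 and 0.142 CPM and Cxcr2 at 1.06 and 1.56 CPM, and only Foxp3-DTR D had Saa3 counts. For 8 fibroblast markers, 3 of them tested, the sum was 40.0 and 53.4 CPM in WT and 27.9 and 31.8 CPM in Foxp3-DTR, and Lum, Dpt and Mfap5 had 0 counts. Col1a1 and Col1a2 gave most of that sum and were lower in both Foxp3-DTR libraries (Col1a1 DESeq2 adjusted p = 0.00645, edgeR adjusted p = 0.0982), while Pdgfra and Dcn were higher in both, at 0.915 and 1.60 against 3.45 and 2.41 CPM for Pdgfra. For 8 T cell markers, 1 of them tested, the sum was 11.6 CPM in WT A and 2.55 to 2.79 CPM in the other 3 libraries, with Cd4 and Foxp3 at 0 counts. For 6 endothelial and mural markers, 3 of them tested, it was 7.32 and 5.41 CPM in WT and 2.92 and 2.13 CPM in Foxp3-DTR, with Cdh5, Kdr and Rgs5 at 0 counts. Tek and Acta2 gave most of that sum in WT and were lower in both Foxp3-DTR libraries. Pecam1 overlapped between groups, at 0.915 and 0 CPM in WT against 1.66 and 0.425 in Foxp3-DTR. For 6 melanocyte markers, 5 of them tested, the sum was 96.1 and 140 CPM in WT and 117 and 138 CPM in Foxp3-DTR, and none was at 0 in all libraries. Mitf gave most of this sum and overlapped between groups, as did Dct, at 24.0 and 11.5 CPM in WT against 17.1 and 24.1 in Foxp3-DTR. The less abundant Pmel, Tyr, Tyrp1 and Mlana were higher in both Foxp3-DTR libraries, at 2.82 and 2.28 against 6.03 and 8.36 CPM for Pmel (edgeR adjusted p = 0.237). The part of such cells in the levels of C3, C1ra, C4b or Saa3 was not tested.

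Genes with the most similar pattern over the 4 libraries were found for C3, Cd55 and Saa3. The measure was the root mean square distance between log2 CPM values centred on their mean. Candidates were 11196 genes whose average log2 CPM was 2 or more. A prior count of 2 was added before the log. Distances to C3 and Saa3, at or near 0 counts in some libraries, depend on it. Nearest to C3 were Mill1, an MHC class I-like gene (distance 0.376), Bcl2l15 (0.384) and Sectm1a (0.457). Mill1 stood at 17.5 and 22.0 CPM in WT and 596 and 258 CPM in Foxp3-DTR, and rose with an edgeR adjusted p of 0.0265. Nearest to Cd55 were Papd4, Hpgd and Zfp174, with distances of 0.0154 to 0.0335. Among the nearest to Saa3, whose pattern rests on 8 counts in 1 library, were Crct1 and Cysrt1, with distances of 0.334 and 0.410. With 4 libraries such likeness is a description.

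**Figure D4:**
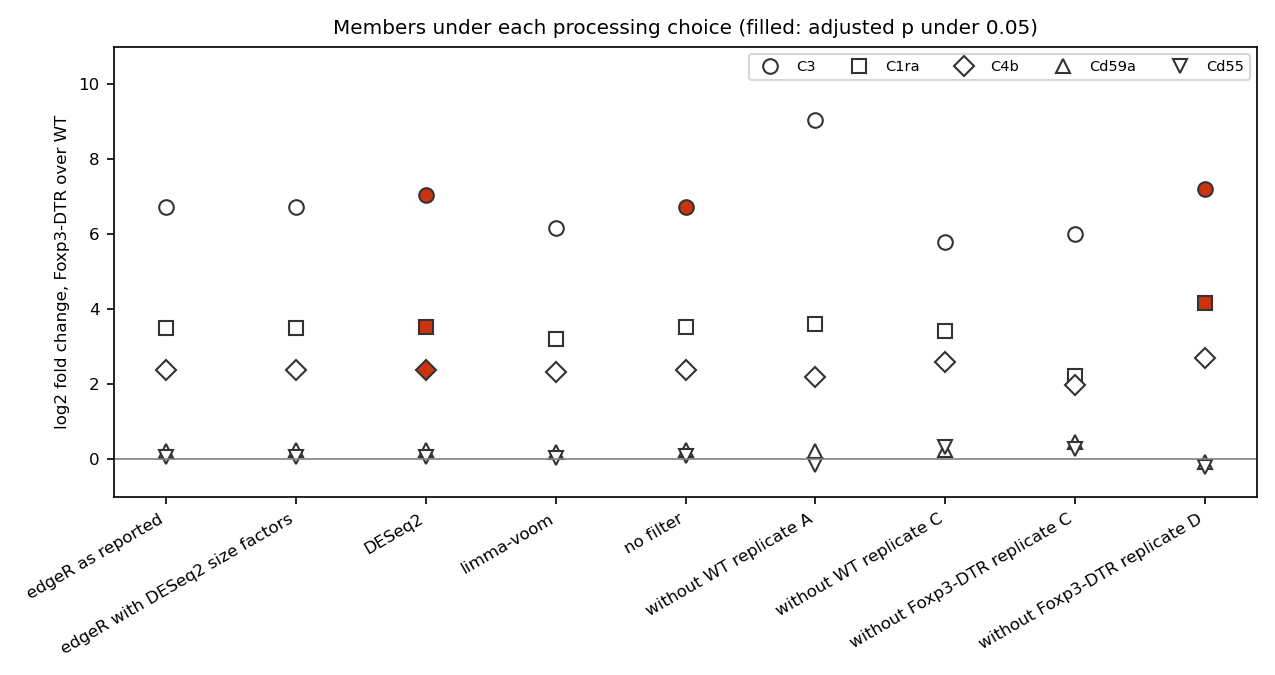
Log2 fold change of Foxp3-DTR over WT (y axis) of the 5 tested members under the reported edgeR fit and 8 alternatives (x axis), with 1 symbol per gene, filled where the adjusted p was under 0.05. C3, C1ra and C4b stayed positive in every fit shown and passed in some, while Cd55 and Cd59a stayed within 0.5 of 0 and changed sign when Foxp3-DTR replicate D was left out.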

How the data were processed

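The authors deposited raw counts, whole numbers of reads for each gene symbol in every library. The submitters' processing notes name HTSeq 0.6.1 and SAMtools 0.1.19.0, TopHat2 2.0.12 with Bowtie2 2.1.0.0, CASAVA 1.8.2, and build mm10. Per the labels' protocols, a stranded mRNA kit was used. Which annotation and strand setting HTSeq used is not given in the sources used here, so antisense reads cannot be told apart. The 5 special rows of the counter, 62.0% to 70.1% of a library's counts, mostly alignments that were not unique (51.8% to 61.3%), were left out, which can lower genes with close copies. The 27 names that look like dates were kept in the fit and never named.

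The groups were compared with edgeR 4.0.16 under R 4.3.3 (TMM, filterByExpr, robust quasi-likelihood fit, no covariate), with Benjamini-Hochberg adjustment over 12920 genes. Genes passed the filter with about 10 counts in at least 2 libraries. Alternatives were DESeq2 1.42.0, limma-voom (limma 3.58.1), DESeq2 size factors, no filter and leaving out each library. The fits were tested on simulated data. Separate animals are not stated for the libraries: p-values therefore measure only the spread between these samples, which may be technical. Standard errors come from the fold change and the F statistic. Intervals and floors for counts cover counting error only.

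The members and lists were chosen with earlier results of these data known. Named are all members and their close copies, list genes past the threshold, the 5 genes of each list with the highest mean CPM, and the 3 nearest patterns. Further genes, such as Cebpb, Irf1, single cell type markers, the sex-linked genes and genes at or near 0 counts, were chosen after their values were seen. Some genes that the rule names are not reported here. Positions and exon lengths are from GENCODE M21 (GRCm38, the assembly mm10 names), matched by symbol.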

Additional observations from a re-analysis of the deposited data

How the results depend on the processing

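Of the 5 tested members, 0 were called higher in edgeR's test, 3 with DESeq2, 1 without the filter on low counts and 0 to 2 when a library was left out. None was called lower in any alternative. Complement genes called higher numbered 1, against 6 with DESeq2, 2 with limma-voom, 2 with no filter and 1 to 4 when a library was left out. Acute phase genes called higher numbered 1, against 3 with DESeq2 and 0 to 2 when a library was left out, and 0 was the value without Foxp3-DTR C. Inducer genes called higher numbered 8, against 17 with DESeq2 and 5 to 14 when a library was left out. All genes called numbered 106 higher and 55 lower, against 489 and 514 with DESeq2, 70 and 23 with limma-voom, 277 and 252 with no filter, and 55 to 168 higher and 7 to 180 lower when a library was left out. With a library left out, the log2 fold change of Cd55 ran from -0.20 (without Foxp3-DTR D; -0.15 without WT A) to 0.33, and that of Cd59a from -0.062 (without Foxp3-DTR D) to 0.47. The cause of these changes was not tested. A fit without 1 library assumes that the lone library of a group varies like the other group. No paired analysis was possible because the replicate letters, A and C in WT and C and D in Foxp3-DTR, share only 1 letter. Low counts limit Cfb and Saa3, with at most 8 counts in any library, and C3 in WT.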
